A study of Mus musculus with 48 samples.

Results

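The nuclear genes of the oxidative phosphorylation complexes were followed across 48 microarray samples. Members were taken by symbol: every gene whose name in the probe annotation began with Nduf, Uqcr, Cox4 to Cox8 or Atp5, together with Sdha, Sdhb, Sdhc and Sdhd. This rule used no measured value and gave 95 of the 22485 gene symbols on the array. The 95 genes were matched by 128 probes, and each gene is represented by its brightest probe, judged by the mean of the 48 samples. By role, 74 members were common subunits (35 of complex I, 4 of complex II, 8 of complex III, 11 of complex IV and 16 of complex V), 8 were complex I assembly factors, 8 were isoforms known mainly from muscle, testis or other special tissues, 4 were copies or pseudogenes, and Cox7a2l is described as a factor that joins complexes into supercomplexes.

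Every sample was a co-culture of a Th2-polarized, nonclonal CD4+ T cell line with splenocytes of naive Balb/c mice as antigen-presenting cells, so RNA of both was measured although the labels name CD4+ T cells. The line came from female Balb/c mice of 8 to 12 weeks that were immunized with Copaxone, and it had gone through 13 rounds of restimulation with Copaxone. Cells were exposed for 24 h to 20 µg/mL of Copaxone (glatiramer acetate, a mixture of synthetic polypeptides; 17 samples from 9 lots), Glatopa (a generic glatiramer acetate; 16 samples from 4 lots) or ACN (an acetonitrile nonconforming copolymer, related to Copaxone but chemically distinct from it; 8 samples from 1 lot), or to medium with mannitol only (Media, 7 samples). Because all samples came from 1 cell bank treated on the same day, the p-values below measure only the spread between these samples, which may be technical, and for ACN no spread between lots was measured.

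Mitochondria make most of the ATP of a resting cell through 5 protein complexes in their inner membrane. Complexes I and II pass electrons from NADH and succinate to ubiquinone, complex III passes them on to cytochrome c, complex IV hands them to oxygen, and the proton gradient built on the way drives complex V, the ATP synthase. Most subunits are encoded in the nucleus and imported, and lymphocytes are known to enlarge both glycolysis and mitochondrial content when they are activated.

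Nuclear genes of these complexes are known for promoters that hold sites of the factors NRF1, GABPA and YY1. The promoter windows of 5 members on which the results below turn are printed first, so that the genes that rose can be read beside the one that fell. Each window runs 5′ to 3′ on the strand of the gene, from 250 bases before to 50 after the start, in the RefSeq annotation of the mouse build GRCm38.p6. Capitals mark matches on either strand to GCGC, any base and TGCGC in a row (NRF1), CCGGAAG (GABPA), AANATGGC (YY1), GGGCGG (Sp factors), CACGTG (MYC) or TCAAGGTCA (estrogen-related receptors).
Cox6a1, chr5:115348909-115349208, minus strand: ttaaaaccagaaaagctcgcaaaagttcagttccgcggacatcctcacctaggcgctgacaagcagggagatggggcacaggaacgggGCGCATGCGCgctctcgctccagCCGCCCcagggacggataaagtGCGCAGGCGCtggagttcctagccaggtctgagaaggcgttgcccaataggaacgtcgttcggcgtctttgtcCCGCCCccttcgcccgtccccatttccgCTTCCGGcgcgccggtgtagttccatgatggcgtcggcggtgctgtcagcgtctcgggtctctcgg
Ndufaf8, chr11:120098684-120098983, plus strand: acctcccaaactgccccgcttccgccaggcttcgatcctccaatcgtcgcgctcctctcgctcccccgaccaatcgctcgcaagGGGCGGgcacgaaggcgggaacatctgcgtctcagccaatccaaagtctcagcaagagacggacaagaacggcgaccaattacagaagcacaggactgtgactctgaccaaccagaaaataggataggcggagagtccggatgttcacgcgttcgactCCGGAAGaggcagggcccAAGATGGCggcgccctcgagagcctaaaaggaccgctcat
Atp5b, chr10:128083057-128083356, plus strand: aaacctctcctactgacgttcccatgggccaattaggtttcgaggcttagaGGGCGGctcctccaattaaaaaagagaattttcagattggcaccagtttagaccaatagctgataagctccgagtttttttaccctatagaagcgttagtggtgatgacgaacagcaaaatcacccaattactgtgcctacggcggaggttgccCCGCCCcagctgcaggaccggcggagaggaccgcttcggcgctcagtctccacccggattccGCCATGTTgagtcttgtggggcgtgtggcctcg
Ndufab1, chr7:122101799-122102098, minus strand: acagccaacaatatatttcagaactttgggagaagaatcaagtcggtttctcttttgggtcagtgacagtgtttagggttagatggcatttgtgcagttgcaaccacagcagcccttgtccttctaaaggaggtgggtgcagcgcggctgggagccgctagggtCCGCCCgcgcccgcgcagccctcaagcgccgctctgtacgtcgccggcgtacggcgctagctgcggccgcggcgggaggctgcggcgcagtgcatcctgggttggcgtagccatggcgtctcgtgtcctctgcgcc
Cox7a2l, chr17:83514284-83514583, minus strand: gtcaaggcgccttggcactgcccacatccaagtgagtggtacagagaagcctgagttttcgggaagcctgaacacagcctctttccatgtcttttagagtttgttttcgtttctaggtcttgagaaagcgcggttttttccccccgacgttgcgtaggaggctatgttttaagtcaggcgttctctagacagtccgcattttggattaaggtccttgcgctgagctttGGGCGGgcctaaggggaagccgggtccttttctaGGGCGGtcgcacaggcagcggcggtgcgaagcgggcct
The Cox6a1 window held the NRF1 letters at 2 places and the GABPA letters once, the Ndufaf8 window held GABPA and YY1 letters close to the start, the Atp5b window held YY1 letters after the start, and the Ndufab1 and Cox7a2l windows held only Sp letters.

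Of the 95 members, 75 had an entry in this promoter table, which holds 27025 genes. The NRF1 letters stood in 24.0% of the members' windows and in 4.78% of all windows, the GABPA letters in 24.0% and 9.12%, and the YY1 letters in 22.7% and 6.23%. At least 1 of these 3 motifs was present in 46 of the 75 windows. The Sp letters were in 46.7% of the members' windows and 35.9% of all windows, the MYC letters in 6.67% and 7.24%, and the estrogen-related receptor letters in 2.67% and 0.407%. By response, the NRF1 letters stood in 27.3% of the 22 matched members that were higher with Copaxone and 18.2% of the 33 that were higher with Glatopa, against 24.3% of the 37 that were higher in no comparison with Media. The other shares in the same order were 27.3%, 21.2% and 21.6% for GABPA, 22.7%, 21.2% and 24.3% for YY1, 59.1%, 54.5% and 43.2% for Sp, 0.00%, 9.09% and 2.70% for MYC, and 0.00%, 6.06% and 0.00% for the estrogen-related receptors. These sets are small and were not tested against each other. The windows were not matched for base composition, a match is not a bound site, and no match says only that these letters were absent from this window.

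Levels are log2 intensities normalized by the authors, and on this scale the median probe of an array lay between 4.94 and 5.00. Of the 95 members, 25 had a mean below 8, where the offset that the authors added compresses differences towards 0, and values of different probes are not set against each other. A member was called when its log2 difference passed an adjusted p of 0.05 in limma's moderated test of the samples of a pair of groups, with the Benjamini-Hochberg adjustment over all 39430 probes. Counts of members are given beside the share of all probes called in the same direction, because a large share of the array differed from Media.

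With Copaxone, 27 members (28.4%) were higher than with Media and 1, Cox7a2l, was lower, where 8.71% of all probes were called higher and 7.46% lower. Glatopa gave 40 higher (42.1%) and the same 1 lower, against 10.3% and 8.56% of all probes. ACN gave 13 higher (13.7%) and again Cox7a2l lower, against 3.73% and 3.36%. The 3 comparisons share the 7 Media samples and so are not independent of each other. On the deposited values the sign was positive for 79, 86 and 76 of the 95 members with Copaxone, Glatopa and ACN, and their median log2 difference was 0.20, 0.26 and 0.16. The median of all probes was 0.00 each time, and that of probes with a mean of at least 8 was 0.08, 0.09 and 0.05. The ACN count rested more than the others on single samples and on how lots were treated: 9 members were called without ACN replicate 7 or without Media replicate 7, and 1 was called when the lot was taken as a random block, which counts the single ACN lot as 1 unit.

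Bright probes were called more often than dim ones. Of the 70 members with a mean of at least 8, a limit chosen after the data were seen, 20 (28.6%) were called higher with Copaxone, against 20.2% of all 3635 probes that bright. With Glatopa the values were 31 of 70 members (44.3%) against 26.1% of bright probes, and with ACN 8 of 70 (11.4%) against 11.3%, a share at the background. The counts also depended on the normalization. After a further cyclic loess normalization of the deposited values, 13 members were higher with Copaxone, 20 with Glatopa and 8 with ACN (13.7%, 21.1% and 8.42%, where 6.59%, 8.33% and 2.85% of all probes were called higher). Among members with a mean of at least 8 the calls were then 8, 12 and 4 of 70, against 13.9%, 19.0% and 7.79% of bright probes, so that the shares of bright members lay below their background. The median of the members was then 0.10, 0.17 and 0.09, and that of bright probes was -0.04, -0.01 and -0.03. Some members with a positive difference on the deposited values then lay below 0, such as Cox4i1 with Copaxone (-0.01). Treated samples did not overlap Media at all for 2 members with Copaxone (Ndufab1 and Ndufaf4), 6 with Glatopa (these together with Ndufaf2, Cox6a1, Atp5b and Atp5g3) and 2 with ACN (Ndufaf2 and Ndufaf6), where 1.09%, 1.81% and 1.20% of all probes had every treated sample above every Media sample.

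**Figure D1:**
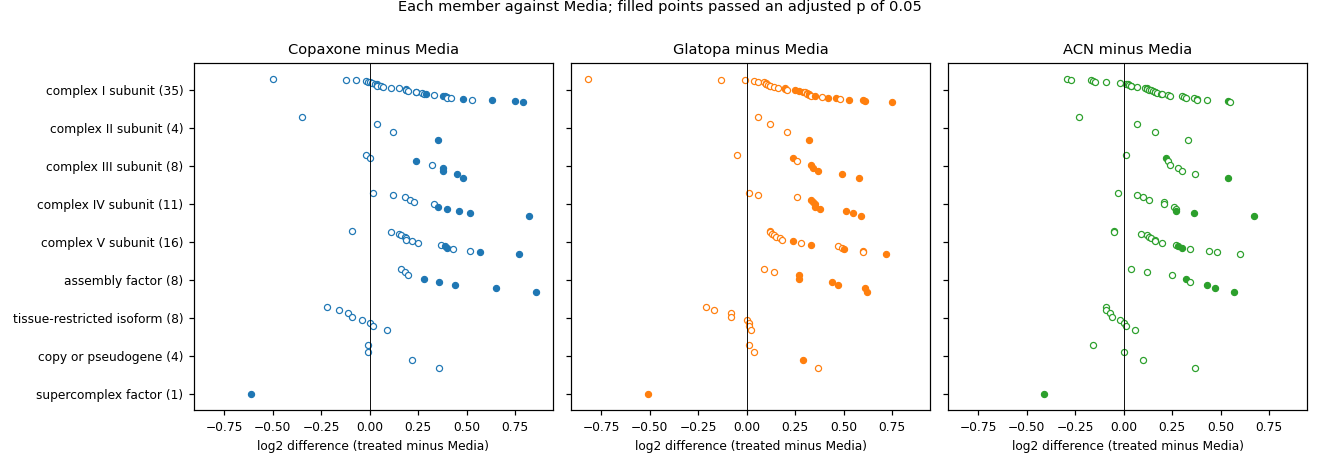
Log2 difference from Media of each of the 95 members (x axis) with Copaxone, Glatopa and ACN, 1 panel each, in rows by complex or role with the number of genes in brackets; filled points passed the adjusted p of 0.05. Most points lie right of 0, the 8 tissue-restricted isoforms are all open, and the 1 filled point left of 0 in each panel is Cox7a2l.

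Over the common subunits alone, 22 of 74 were higher with Copaxone, 33 with Glatopa and 9 with ACN (29.7%, 44.6% and 12.2%, where 8.71%, 10.3% and 3.73% of all probes and 20.2%, 26.1% and 11.3% of bright probes were called higher), and none was lower. The ACN share was thus near that of bright probes. By complex the counts with Copaxone, Glatopa and ACN were 7, 13 and 2 of 35 for complex I, 1, 1 and 0 of 4 for complex II, 5, 6 and 2 of 8 for complex III, 5, 8 and 3 of 11 for complex IV, and 4, 5 and 2 of 16 for complex V. With Copaxone this is 20.0% in complex I, at the share of bright probes, 62.5% and 45.5% in complexes III and IV, and 25.0% in complexes II and V. With ACN complex I had 5.71%, under the share of bright probes. The shares by complex and their order depended on the normalization. After cyclic loess the counts with Copaxone, Glatopa and ACN were 3, 7 and 2 for complex I, 0, 0 and 0 for complex II, 0, 2 and 1 for complex III, 2, 4 and 2 for complex IV and 4, 2 and 0 for complex V, so with Copaxone the share was 0.00% in complex III and 25.0% in complex V, where 13.9% of bright probes were called. The median log2 difference of the subunits with Copaxone was 0.19 for complex I, 0.08 for complex II, 0.35 for complex III, 0.33 for complex IV and 0.23 for complex V. All 11 complex IV subunits had a positive difference with Copaxone and with Glatopa, except that after cyclic loess Cox4i1 (-0.01 and -0.09) and Cox7c (-0.10 and -0.03) lay just below 0. Members of a complex were measured in the same samples, so a count over them is not a count of independent results.

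The mean over the subunits of a complex was a compact measure in each sample. For complex I it had a lowest, median and highest value of 9.15, 9.27 and 9.36 with Copaxone, 9.16, 9.29 and 9.38 with Glatopa and 9.04, 9.18 and 9.29 with ACN, against 9.00, 9.05 and 9.12 with Media. All Copaxone and Glatopa samples lay above all Media samples, and ACN samples overlapped them. Complex IV showed the same order, with 10.19, 10.35 and 10.57 with Copaxone, 10.16, 10.37 and 10.46 with Glatopa and 10.13, 10.27 and 10.38 with ACN, against 9.86, 10.04 and 10.16 with Media. For complex V the values were 10.04, 10.24 and 10.39 with Copaxone, 10.09, 10.24 and 10.41 with Glatopa and 9.92, 10.17 and 10.32 with ACN, against 9.83, 9.94 and 9.98 with Media. In complex V the Copaxone and Glatopa samples again did not overlap the Media samples. Complex III samples of Glatopa and ACN lay above all Media samples, while those of Copaxone overlapped them. Complex III means were 9.43, 9.67 and 9.89 with Copaxone, 9.55, 9.74 and 9.86 with Glatopa and 9.52, 9.66 and 9.86 with ACN, against 9.33, 9.38 and 9.49 with Media. Complex II, with only 4 genes, overlapped throughout, at 7.88, 9.06 and 9.25 with Copaxone, 8.05, 9.13 and 9.34 with Glatopa and 8.30, 9.02 and 9.15 with ACN, against 8.68, 8.87 and 9.08 with Media. These means are given as descriptions without a test, and a change in the share of a cell type and a change in RNA per cell cannot be told apart in them. They are means of the deposited values, and means over other bright probes were not set beside them. All bright probes had a median difference of 0.08 with Copaxone and 0.09 with Glatopa. After cyclic loess the median difference of the subunits with Copaxone was 0.07, -0.04, 0.23, 0.21 and 0.11 for complexes I to V.

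**Figure D2:**
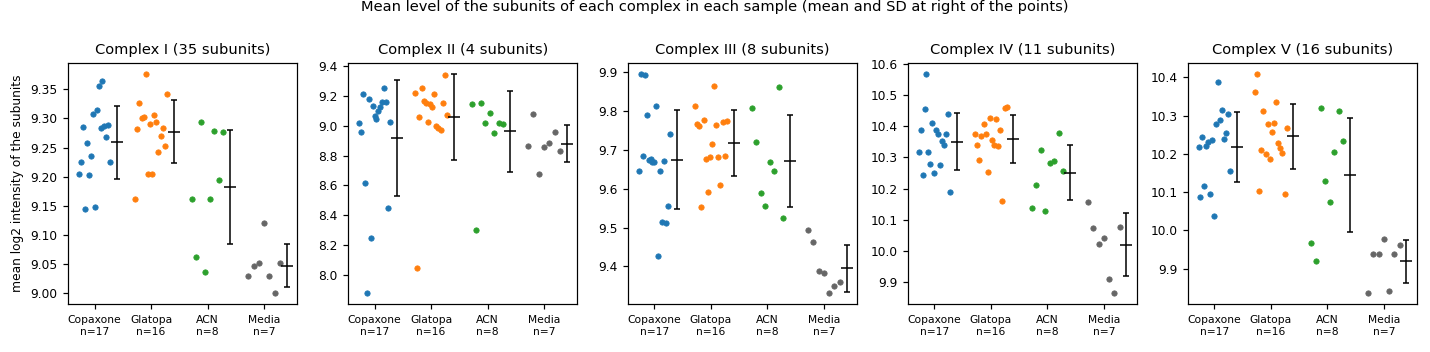
Mean log2 intensity, from the deposited values, of the subunits of complexes I to V (y axis, 1 panel each) in each of the 17 Copaxone, 16 Glatopa, 8 ACN and 7 Media samples; points are samples, with the group mean and SD at their right. In complexes I and V every Copaxone and Glatopa sample lies above every Media sample, whereas the complex II panel has single low samples down to 7.88.

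Complex I takes electrons from NADH. Its member with the smallest adjusted p was Ndufab1, the mitochondrial acyl carrier protein, which serves fatty acid synthesis as well as complex I. It measured 6.22, 6.64 and 6.86 (lowest, median and highest) with Copaxone, 6.34, 6.64 and 6.81 with Glatopa and 5.92, 6.48 and 6.68 with ACN, against 5.70, 5.92 and 6.06 with Media. All Copaxone and Glatopa samples lay above all Media samples. The log2 difference was 0.75 ± 0.07 (SE) with Copaxone (adjusted p = 5.10e-09), 0.75 with Glatopa (adjusted p = 3.79e-10) and 0.54 with ACN (adjusted p = 0.00285). Ndufb6, an accessory subunit of the membrane arm, measured 7.99, 8.61 and 9.02 with Copaxone, 8.09, 8.59 and 9.02 with Glatopa and 7.05, 8.59 and 8.80 with ACN, against 7.65, 7.94 and 8.36 with Media. Its difference was 0.63 with Copaxone (adjusted p = 0.000106), 0.61 with Glatopa (adjusted p = 1.82e-05) and 0.43 with ACN (adjusted p = 0.314), with 1 ACN sample far below the other 7. Ndufv2, which carries an iron-sulfur cluster of the NADH-oxidizing module, was only slightly higher, by 0.29 with Copaxone (adjusted p = 0.00758) and 0.29 with Glatopa (adjusted p = 0.00524), and its groups overlapped. Ndufb9 and Ndufb2, accessory subunits of the membrane arm, were called with 1 compound each by the probe that represents them. Ndufb9 spread widely, at 8.04, 9.28 and 10.04 with Copaxone, 6.78, 9.07 and 9.84 with Glatopa and 6.95, 8.51 and 9.75 with ACN, against 7.26, 8.38 and 9.49 with Media, and its difference was 0.79 with Copaxone (adjusted p = 0.0270), 0.39 with Glatopa (adjusted p = 0.527) and -0.16 with ACN (adjusted p = 0.925). For Ndufb2 it was 0.11 with Copaxone (adjusted p = 0.810), 0.46 with Glatopa (adjusted p = 0.00731) and -0.09 with ACN (adjusted p = 0.952). The other Ndufb2 probe was called with the other compounds, at 0.48 with Copaxone (adjusted p = 0.000572), 0.26 with Glatopa (adjusted p = 0.633) and 0.42 with ACN (adjusted p = 0.00406), so which compound gave a call depended on the probe. Without the 4 arrays described below the first probe differed by 0.29 with Copaxone and 0.30 with ACN, neither called. Over the 15 subunits of the matrix arm, where NADH is oxidized, 2 were called higher with Copaxone, 7 with Glatopa and 0 with ACN, and over the 19 accessory subunits of the membrane arm the counts were 4, 5 and 1. These are 13.3%, 46.7% and 0.00% of the matrix arm and 21.1%, 26.3% and 5.26% of the membrane arm subunits. Of bright probes 20.2%, 26.1% and 11.3% were called higher. On the deposited values only the share of the matrix arm with Glatopa thus lay well above this background. The calls of Ndufv2 and Ndufb9 were lost after cyclic loess (adjusted p = 0.0968 and 0.0718 with Copaxone). After it, the matrix arm subunits Ndufs4, Ndufs6, Ndufv1, Ndufv2 and Ndufv3 were no longer called with Glatopa (adjusted p = 0.0701 to 0.384). Of the matrix arm only Ndufa12 and Ndufs1 were then still called with Glatopa, so that its share depended on the normalization.

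Of the 8 complex I assembly factors, proteins that help to build the complex but are not part of it, 5 were called higher with Copaxone, 6 with Glatopa and 4 with ACN (62.5%, 75.0% and 50.0%, beside 8.71%, 10.3% and 3.73% of all probes), and all 8 had a positive difference in all 3 comparisons. Ndufaf4 measured 7.28, 7.65 and 8.14 with Copaxone, 7.45, 7.70 and 7.91 with Glatopa and 7.11, 7.52 and 8.00 with ACN, against 6.93, 7.05 and 7.24 with Media. Copaxone and Glatopa samples did not overlap Media, and the difference was 0.65 with Copaxone (adjusted p = 3.25e-06), 0.61 with Glatopa (adjusted p = 6.80e-09) and 0.47 with ACN (adjusted p = 0.0139). Ndufaf8 lay close to the array median, at 5.21, 5.92 and 6.60 with Copaxone, 4.91, 5.84 and 6.29 with Glatopa and 4.88, 5.78 and 5.90 with ACN, against 4.69, 5.26 and 5.57 with Media. Its difference of 0.86 with Copaxone was the largest of any member (adjusted p = 4.08e-05), with 0.62 for Glatopa (adjusted p = 0.00867) and 0.57 for ACN (adjusted p = 0.0355). Ndufaf6, also dim, was higher by 0.44 with Copaxone (adjusted p = 0.000160), 0.47 with Glatopa (adjusted p = 1.21e-05) and 0.43 with ACN (adjusted p = 0.00528), and its 8 ACN samples lay above all Media samples.

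Complex II is succinate dehydrogenase, which is also an enzyme of the tricarboxylic acid cycle. Sdhc, one of its membrane anchors, measured 7.57, 8.03 and 8.75 with Copaxone, 7.50, 7.97 and 8.18 with Glatopa and 7.67, 7.98 and 8.53 with ACN, against 7.41, 7.64 and 7.98 with Media, and the groups overlapped. The difference was 0.35 with Copaxone (adjusted p = 0.0260), 0.21 with Glatopa (adjusted p = 0.124) and 0.33 with ACN (adjusted p = 0.129). For Sdhd, the other anchor, it was 0.12 with Copaxone, 0.32 with Glatopa (adjusted p = 0.00898) and -0.23 with ACN, of which only the Glatopa value was called. After cyclic loess neither the Sdhc call with Copaxone (adjusted p = 0.109) nor the Sdhd call with Glatopa (adjusted p = 0.0636) was kept. The brightest probes of the catalytic subunits Sdha and Sdhb were called in no comparison, with differences of -0.35 and 0.04 with Copaxone, 0.06 and 0.12 with Glatopa, and 0.16 and 0.07 with ACN. The other Sdhb probe was called higher with Copaxone (0.32, adjusted p = 0.00758) and Glatopa (0.35, adjusted p = 0.00599) and not with ACN (0.18, adjusted p = 0.418), and the other Sdhc probe was called with none, at 0.21 with Copaxone (adjusted p = 0.313). The negative Sdha mean with Copaxone went with single low samples, since the group ran from 6.02 to 9.44 with a median of 9.16, against 8.73 to 9.33 with a median of 8.94 in Media.

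In complex III the called members included both core proteins and small accessory subunits, but none of the 5 Copaxone calls passed after cyclic loess, where the median difference of the 8 subunits was 0.23 in place of 0.35. Uqcrc1 and Uqcrq still passed with Glatopa and Uqcrc1 with ACN. Uqcrq measured 10.06, 10.87 and 11.47 with Copaxone, 10.72, 10.95 and 11.26 with Glatopa and 10.61, 10.71 and 11.12 with ACN, against 10.14, 10.54 and 10.76 with Media. It was higher by 0.38 with Copaxone (adjusted p = 0.0225) and 0.49 with Glatopa (adjusted p = 5.42e-05), and its difference with ACN was 0.28 (adjusted p = 0.0990). The dimmer Uqcrq probe had larger differences and was called in all 3, at 0.82 with Copaxone (adjusted p = 1.26e-05), 0.84 with Glatopa (adjusted p = 8.90e-05) and 0.69 with ACN (adjusted p = 0.00110). Uqcr11, another small accessory subunit, was higher by 0.45 with Copaxone (adjusted p = 0.00571) and 0.37 with Glatopa (adjusted p = 0.0292), with 0.37 for ACN (adjusted p = 0.214). The core protein Uqcrc2 had a small and even difference in all 3, 0.24 with Copaxone (adjusted p = 0.00644), 0.24 with Glatopa (adjusted p = 0.00332) and 0.22 with ACN (adjusted p = 0.0456). It was the 1 member present as 10 spots, which were averaged although their means spread between 8.61 and 9.82. When the spots were not averaged, its brightest spot was not called with Copaxone, and the other spots were not read. Nothing in complex III was lower.

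Complex IV, cytochrome c oxidase, is built around subunits encoded in mitochondrial DNA, and the nuclear genes measured here encode the subunits around that core. Cox6a1, the common form of subunit VIa, measured 12.22, 12.80 and 13.16 with Copaxone, 12.60, 12.90 and 13.14 with Glatopa and 12.40, 12.65 and 12.86 with ACN, against 12.03, 12.33 and 12.48 with Media. Of the 17 Copaxone samples 16 lay above every Media sample, as did all 16 Glatopa samples, and the difference was 0.52 with Copaxone (adjusted p = 0.000126), 0.59 with Glatopa (adjusted p = 9.16e-07) and 0.36 with ACN (adjusted p = 0.00678). Cox5a, a subunit on the matrix side, measured 11.02, 11.44 and 12.07 with Copaxone, 10.09, 11.21 and 11.55 with Glatopa and 10.89, 11.36 and 11.45 with ACN, against 9.93, 10.72 and 11.04 with Media. It was higher in all 3, by 0.82 with Copaxone (adjusted p = 1.91e-05), 0.51 with Glatopa (adjusted p = 0.0204) and 0.67 with ACN (adjusted p = 0.00345). Smaller differences were called for Cox7a2, at 0.46 with Copaxone (adjusted p = 0.0124) and 0.55 with Glatopa (adjusted p = 0.00500), for Cox7b, at 0.40 with Copaxone (adjusted p = 0.0170) and 0.35 with Glatopa (adjusted p = 0.0175), and for Ndufa4, now counted to complex IV, at 0.35 with Copaxone (adjusted p = 0.0206), 0.38 with Glatopa (adjusted p = 0.00215) and 0.27 with ACN (adjusted p = 0.0396). Cox8a and Cox6b1 were called with Glatopa, by 0.33 (adjusted p = 0.0409) and 0.34 (adjusted p = 0.00140), and differed from Media by 0.21 and 0.18 with Copaxone and by 0.07 and 0.13 with ACN without passing the test. The other Cox8a probe passed with Copaxone (0.30, adjusted p = 0.0251) and Glatopa (0.28, adjusted p = 0.0138) and had a difference of -0.68 with ACN (adjusted p = 0.750), and Cox6b1 passed with Copaxone without the 4 arrays described below (0.31, adjusted p = 0.0264). The regulatory subunit Cox4i1 was called in none, with differences of 0.12, 0.01 and 0.21 for Copaxone, Glatopa and ACN. After cyclic loess the calls were lost for Cox5a with Glatopa (adjusted p = 0.0867), Cox7a2 with Copaxone (0.0776) and Cox8a with Glatopa (0.184). Those of Cox7b with Copaxone and Glatopa (0.0917 and 0.0835) and of Ndufa4 with Copaxone and ACN (0.191 and 0.157) were lost too. Cox6a1 in all 3, Cox5a with Copaxone and ACN, and Cox7a2, Cox6b1 and Ndufa4 with Glatopa were still called.

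The one member that was lower was Cox7a2l, also known as SCAF1, which resembles Cox7a2 in sequence. It is described as joining complex III to complex IV in supercomplexes, which were not measured here. It measured 9.32, 10.14 and 11.04 with Copaxone, 9.86, 10.31 and 10.55 with Glatopa and 9.89, 10.43 and 10.72 with ACN, against 10.60, 10.75 and 11.06 with Media. All 16 Glatopa samples lay below all Media samples, as was so for 1.89% of all probes, and 15 of 17 Copaxone and 7 of 8 ACN samples did so. The log2 difference was -0.61 with Copaxone (adjusted p = 0.00357), -0.51 with Glatopa (adjusted p = 8.27e-06) and -0.41 with ACN (adjusted p = 0.0235). All 3 probes of the gene were called lower in each of the 3 comparisons, the other pair by 0.55 and 0.73 with Copaxone, by 0.70 and 0.79 with Glatopa and by 0.57 and 0.64 with ACN in size. No gene with several probes was called in opposite directions by different probes, though of the 25 such genes 7 with Copaxone, 3 with Glatopa and 13 with ACN had probes of mixed sign.

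The isoforms of complex IV subunits and of Ndufa4 that are known from muscle, testis, lung or hypoxic cells stayed dim. Cox4i2, Cox6a2, Cox6b2, Cox7a1, Cox7b2, Cox8b, Cox8c and Ndufa4l2 had group means between 4.71 and 5.87, near the array median, and none was called in any comparison. Over all samples of the 4 groups they ran from 4.48 (Cox8b, Glatopa) to 6.87 (Cox6a2, ACN). Of these isoforms, only Cox6a2 was called under another normalization, as lower with Copaxone and Glatopa after cyclic loess. The 8 markers of striated muscle were below 5.5 in every group too. Of the 4 copies and pseudogenes, whose probes may also bind transcripts of the parent gene, Ndufs6b was called with Glatopa, at 0.29 (adjusted p = 0.0390), and Cox5b-ps, Ndufa11b and Uqcrh-ps1 were called in no comparison.

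Complex V, the ATP synthase, rose most clearly in Atp5b, the catalytic beta subunit. Atp5b measured 11.15, 11.81 and 12.25 with Copaxone, 11.66, 11.91 and 12.18 with Glatopa and 11.06, 11.52 and 12.22 with ACN, against 10.80, 11.28 and 11.41 with Media. Glatopa samples lay above all Media samples and 15 of the 17 Copaxone samples did, with differences of 0.57 with Copaxone (adjusted p = 0.000881), 0.72 with Glatopa (adjusted p = 1.13e-07) and 0.34 with ACN (adjusted p = 0.231). Atp5h, a subunit of the peripheral stalk, measured 11.03, 11.42 and 11.69 with Copaxone, 9.98, 11.20 and 11.57 with Glatopa and 10.98, 11.12 and 11.44 with ACN, against 10.74, 10.90 and 11.26 with Media. It was called only with Copaxone, at 0.40 (adjusted p = 0.00165), beside 0.18 with Glatopa (adjusted p = 0.487). Atp5k, a small membrane subunit, was higher by 0.39 with Copaxone (adjusted p = 0.00280) and 0.30 with ACN (adjusted p = 0.0315), beside 0.14 with Glatopa (adjusted p = 0.274). The other Atp5k probe had the reverse pattern, at 0.29 with Glatopa (adjusted p = 0.0172), 0.22 with Copaxone (adjusted p = 0.245) and 0.15 with ACN (adjusted p = 0.649), and the other Atp5h probe was not called, at 0.03 with Copaxone. The ring subunits encoded by Atp5g2 and Atp5g3 make the same mature protein, and Atp5g3 was called only with Glatopa, at 0.60 (adjusted p = 5.69e-05), beside 0.15 with Copaxone and -0.05 with ACN. Atp5g2 was not called, at 0.19, 0.12 and 0.09 for Copaxone, Glatopa and ACN.

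**Figure D3:**
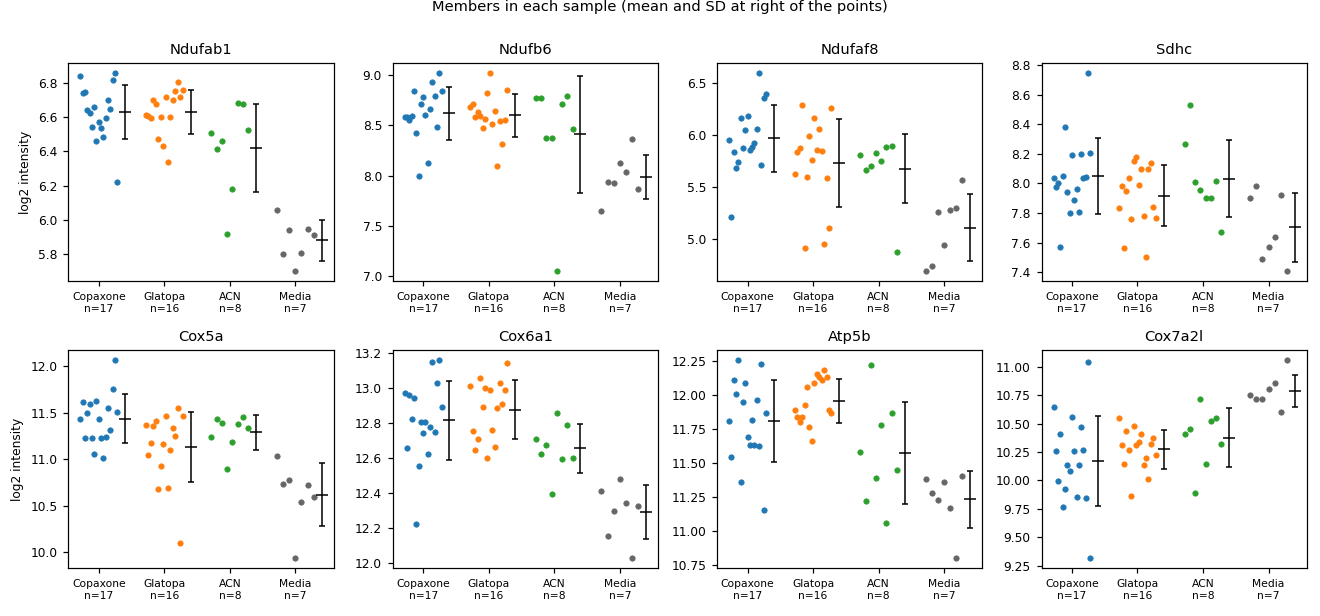
Log2 intensity (y axis, each panel on its own scale) of 8 members in each Copaxone, Glatopa, ACN and Media sample; points are samples, with the group mean and SD at their right. Ndufab1 has no overlap between Copaxone or Glatopa and Media, Cox6a1 and Atp5b have none between Glatopa and Media, and Cox7a2l is the 1 panel in which Media is highest.

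Calls were not evenly shared between the compounds, but a call with 1 compound and not with another is no difference between them. Of the 95 members, 10 were called higher with all 3 compounds, 11 with Copaxone and Glatopa, 2 with Copaxone and ACN, 19 with Glatopa alone, 4 with Copaxone alone and 1, Atp5l, with ACN alone, while 47 were called with none. As shares these are 10.5%, 11.6%, 2.11%, 20.0%, 4.21% and 1.05% of the members, against 9.66%, 8.12%, 0.440%, 7.62%, 2.01% and 0.468% of bright probes and 3.26%, 4.19%, 0.134%, 2.70%, 1.12% and 0.142% of all probes. Calls with all 3 compounds were thus about as common among bright probes. The 95 members include 25 with a mean below 8, so the members and the bright probes were not matched in brightness. These patterns hold for 1 probe a gene. Atp5l, a subunit of complex V, has 5 probes, of which another was called with Copaxone (0.74, adjusted p = 0.0300) and Glatopa (0.80, adjusted p = 0.00250) and not with ACN (0.62, adjusted p = 0.417). Of the 25 members with several probes, 7 with Copaxone, 7 with Glatopa and 2 with ACN were called by another probe and not by the one counted here, and 4, 4 and 2 by the counted probe and no other. The compounds were given at the same dose and time, so they were also tested against each other, over 3 pairs. No member was called in any pair, where 0.00% of all probes were called for Glatopa against Copaxone, 0.112% for ACN against Copaxone and 0.680% for ACN against Glatopa. At an unadjusted p below 0.05, 7 members differed between Glatopa and Copaxone (4 higher and 3 lower, where 4.13% of all probes passed), 5 between ACN and Copaxone (all lower, 8.01% of all probes) and 13 between ACN and Glatopa (all lower, 10.7% of all probes). The median of the members was 0.02 for Glatopa minus Copaxone, -0.04 for ACN minus Copaxone and -0.04 for ACN minus Glatopa.

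The differences between compounds with the smallest p values were those of single genes, and larger ones with wider intervals were not called: for ACN minus Glatopa the members ran from -0.65 (Atp5g3) to 0.64 (Ndufa6), and for Glatopa minus Copaxone from -0.40 (Ndufb9) to 0.45 (Atp5g3). Atp5b was lower with ACN than with Glatopa by a log2 difference of -0.39 (95% interval -0.60 to -0.17, adjusted p = 0.0869 over all probes and p = 0.00289 when adjusted over the 3 pairs alone), and 5 of 8 ACN samples lay below every Glatopa sample. It passed over all probes without ACN replicate 3 (-0.48, adjusted p = 0.0119), and with the lot as a random block Atp5b, Cox6a1 and Atp5g3 passed (adjusted p = 0.0147, 0.0338 and 0.0484). With robust regression, an alternative added after the data were seen, in the same pair Uqcrq (-0.23, adjusted p = 0.00113), Atp5b (-0.41, adjusted p = 0.0319) and Cox5b (-0.25, adjusted p = 0.0434) passed. In the same pair Cox6a1 differed by -0.22 (interval -0.36 to -0.08, adjusted p = 0.148) and Uqcrq by -0.22 (interval -0.36 to -0.07, adjusted p = 0.187). Between ACN and Copaxone the smallest p belonged to Ndufb9, an accessory subunit of complex I, at -0.95 (interval -1.62 to -0.28, adjusted p = 0.340), in a gene whose ACN values spread from 6.95 to 9.75 and whose Copaxone values spread from 8.04 to 10.04. Between Glatopa and Copaxone the smallest p values were those of Atp5k, at -0.24 (interval -0.40 to -0.09), Cox5a, at -0.31 (interval -0.53 to -0.09), and Ndufb2, another complex I subunit, at 0.35 (interval 0.07 to 0.63), all with an adjusted p of 0.995. These genes were picked for their small p values, so the intervals describe them.

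How closely the compounds could be set beside each other follows from the intervals. The 95% interval of the difference lay inside 1.3-fold in both directions for 72 of 95 members (75.8%) for Glatopa against Copaxone, 58 (61.1%) for ACN against Copaxone and 64 (67.4%) for ACN against Glatopa. Among the 70 members with a mean of at least 8 the shares were 74.3%, 57.1% and 65.7%, against 73.1%, 52.5% and 58.4% of all bright probes. For the remaining members the interval reached past 1.3-fold in at least 1 direction, and a p that misses the threshold does not show that the compounds act alike.

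**Figure D4:**
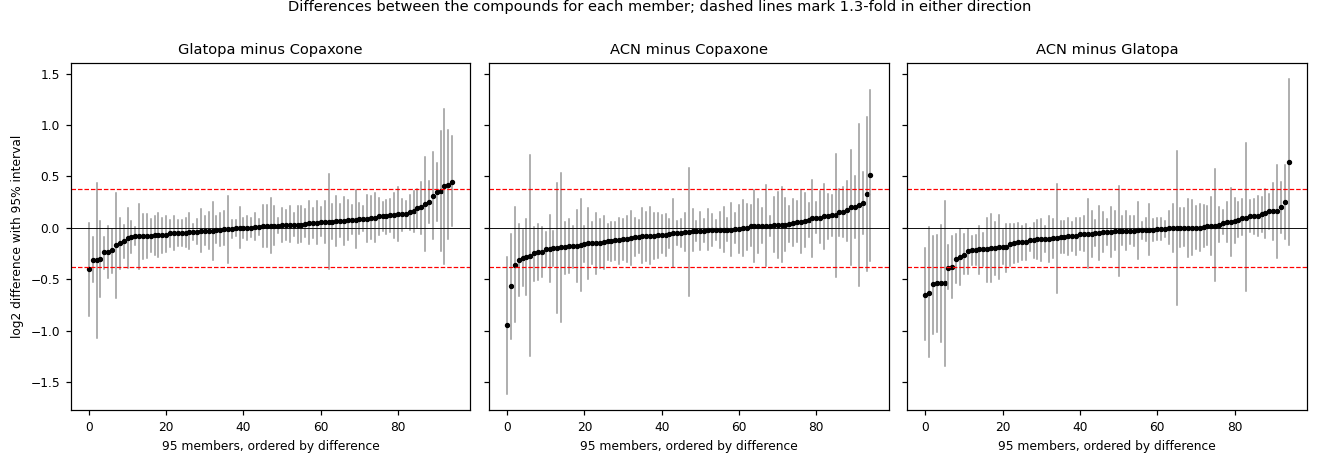
Log2 difference (points) with its 95% interval (lines) of each of the 95 members for Glatopa minus Copaxone, ACN minus Copaxone and ACN minus Glatopa, ordered by size within each panel; dashed lines mark 1.3-fold in either direction. Most intervals cross 0 in all panels, and long ones include that of Ndufb9, whose values spread widely (6.95 to 9.75 with ACN).

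Single samples far below their group recurred in many members. Of the 4560 member values, 91 (2.00%) lay more than 1 log2 unit below the median of their group and 5 (0.110%) more than 1 above, as for bright probes in general (2.43% and 0.293%). The 91 values fell on 35 members and 31 arrays. Of them 26 fell on 4 arrays that stood apart on the main axis of variation within groups: the first replicates of Copaxone lots 3, 7 and 9 and ACN replicate 2. On those 4 arrays 6.84% of member values were low, against 1.56% on the others. Atp5g3 and Ndufa9 were the plainest cases, each low on exactly these 4 arrays apart from 1 further ACN sample for Ndufa9, whereas the lowest values of Sdha, Ndufa6 and Ndufc1 were mostly on other arrays. What sets these arrays apart was not tested.

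Without the 4 arrays, 33 members were higher with Copaxone than with Media, where 8.76% of all probes were called higher, and 1 was lower, and 27 of the 28 earlier calls were kept. Among the added members, Atp5g3 had a difference of 0.51 (adjusted p = 0.00235) where it was 0.15 with all samples, and Ndufa9, a matrix arm subunit, 0.49 (adjusted p = 0.00170) where it was -0.02. Uqcrc1, a core protein of complex III, was lost (adjusted p = 0.0861). For ACN, which had 1 such array, 9 members were higher, where 3.32% of all probes were, and 1 was lower, and 9 of these 10 were among the 14 called with all samples. The arrays were picked after the data were seen, so both counts are given.

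**Figure D5:**
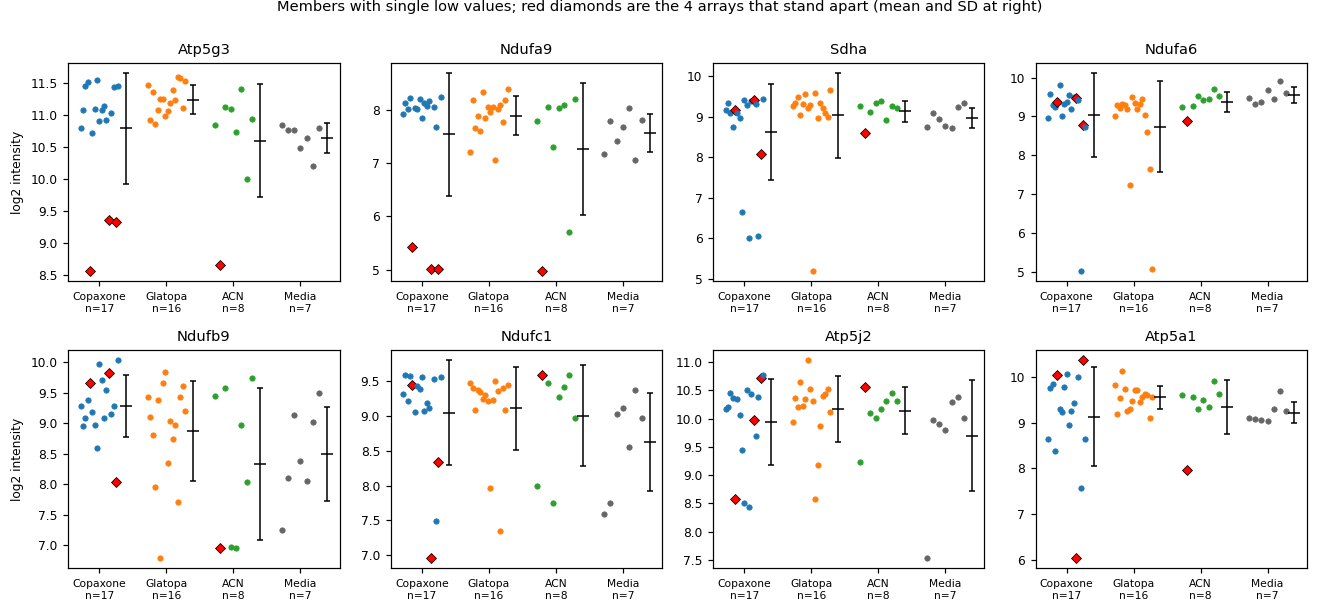
Log2 intensity (y axis, each panel on its own scale) of 8 members that had single low samples, in each Copaxone, Glatopa, ACN and Media sample, with the group mean and SD at right; red diamonds are the 4 arrays that stood apart. For Atp5g3 the 4 diamonds are the low points, whereas for Ndufa6 and Sdha low points, down to 5.01 and 5.19, are other samples.

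Some calls of named members were lost when a single sample or lot was left out. With Copaxone these were Cox7b without Media replicate 5 or 6 (adjusted p up to 0.0694), Uqcrq without Media replicate 3 or 6 (0.0620 and 0.0714), Sdhc without Media replicate 3, 4, 5 or 7 (0.0523 to 0.0832) and Ndufb9 without Copaxone lot 5 or Media replicate 1, 2, 4 or 5 (0.0536 to 0.102). With Glatopa they were Cox5a without lot 1 or Media replicate 4 (0.0690 and 0.0790), Cox7b without lot 3 or 4 or Media replicate 3, 5 or 6 (0.0503 to 0.0686), Uqcr11 without lot 2 or 3 or Media replicate 2, 4 or 5 (0.0706 to 0.105) and Cox8a in 8 of 11 such fits (0.0510 to 0.148). With ACN they were Cox7a2l without Media replicate 7 (0.0564), Atp5k in 9 of 15 fits (0.0509 to 0.0663), Ndufaf8 in 10 (0.0534 to 0.0747), Uqcrc2 in 11 (from 0.0565 up) and Ndufa4 in 13 (0.0546 to 0.0739). None of these members changed sign. The calls of Ndufab1, Ndufb6, Ndufaf4, Ndufaf8 and Cox6a1 with Copaxone were kept in all 28 alternatives tried.

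The subunits of each lot were set against Media. The median difference of the 74 subunits from the Media mean was 0.30, 0.32, 0.16, 0.22, 0.21, 0.25, 0.20, 0.40 and 0.28 in Copaxone lots 1 to 9, the value of lot 8 resting on 1 sample, and 0.23, 0.28, 0.28 and 0.29 in Glatopa lots 1 to 4. Every lot of both compounds therefore lay above Media in its median, with between 55 and 69 of the 74 subunits above. All lots were set against the same Media samples on the deposited values, so the lots are not independent of each other. The share of other bright probes above Media was not computed by lot. Over all lots bright probes had a median of 0.08 with Copaxone and 0.09 with Glatopa, and after cyclic loess the subunits had 0.11 and 0.19. Lot means of a member had a median SD of 0.21 for Copaxone and 0.10 for Glatopa, where its spread within lots (0.29 and 0.21) and the number of samples in a lot would give 0.21 and 0.11 without any difference between lots.

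Other mitochondrial gene lists were read beside the members. They were read only on the deposited values and not after cyclic loess, under which the counts of the members fell. Their shares called higher stand beside 8.71%, 10.3% and 3.73% of all probes, and 20.2%, 26.1% and 11.3% of bright probes, with Copaxone, Glatopa and ACN. Of 76 genes of the mitochondrial ribosome, which translates the subunits encoded in mitochondrial DNA, 29 were higher with Copaxone, 39 with Glatopa and 16 with ACN (38.2%, 51.3% and 21.1%), and none was lower. Mrps22 was higher by 0.47 with Copaxone (adjusted p = 1.16e-05), 0.55 with Glatopa (adjusted p = 6.03e-07) and 0.44 with ACN (adjusted p = 0.000483). Of 24 genes of mitochondrial protein import and folding, 14, 18 and 8 were higher with Copaxone, Glatopa and ACN (58.3%, 75.0% and 33.3%). Among them Timm10, a chaperone of the space between the membranes, was higher by 0.66 with Copaxone (adjusted p = 1.33e-05), 0.81 with Glatopa (adjusted p = 1.25e-07) and 0.55 with ACN (adjusted p = 0.00128), and Hspe1, the small partner of the folding chamber Hspd1, by 0.62 with Copaxone (adjusted p = 5.31e-05), 0.67 with Glatopa (adjusted p = 8.03e-07) and 0.51 with ACN (adjusted p = 0.00249). The median differences of these lists with Copaxone, Glatopa and ACN were 0.24, 0.26 and 0.20 for the ribosome and 0.37, 0.42 and 0.31 for import.

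In the tricarboxylic acid cycle 3, 9 and 1 of 16 genes were higher with Copaxone, Glatopa and ACN (18.8%, 56.2% and 6.25%), among them Idh3a, a subunit of the NAD-dependent isocitrate dehydrogenase, at 0.64 with Copaxone (adjusted p = 0.00470), 0.76 with Glatopa (adjusted p = 5.06e-07) and 0.58 with ACN (adjusted p = 0.00929). Of 18 genes for the transcription and upkeep of mitochondrial DNA, 3, 6 and 0 were higher (16.7%, 33.3% and 0.00%), such as Tfb1m, which modifies the mitochondrial ribosomal RNA, at 0.53 with Copaxone (adjusted p = 0.000140) and 0.59 with Glatopa (adjusted p = 1.35e-07). Of 11 carriers and subunits that the symbol rule leaves out, 2, 4 and 1 were higher (18.2%, 36.4% and 9.09%), with Cycs, the cytochrome c that complex IV oxidizes, at 0.65 with Copaxone (adjusted p = 1.95e-05), 0.75 with Glatopa (adjusted p = 1.34e-06) and 0.29 with ACN (adjusted p = 0.643). The 37 other assembly factors of the complexes went both ways, with 7, 13 and 2 higher (18.9%, 35.1% and 5.41%) and 3, 3 and 2 lower. In this list Nubpl, which delivers iron-sulfur clusters to complex I, was higher by 0.59 with Copaxone (adjusted p = 2.69e-05), while Uqcc3, a complex III assembly factor, had a difference of -0.53 (adjusted p = 0.000627) and Surf1, a complex IV assembly factor, one of -0.34 (adjusted p = 0.00204). Of 7 genes of uncoupling and peroxide defence, 3 (42.9%) were higher and 1 lower with Copaxone and with Glatopa and none was called with ACN, and Prdx3, a peroxidase of the mitochondrial matrix, was higher by 0.35 with Copaxone (adjusted p = 7.94e-05), beside a difference of -0.58 for Gpx4, which reduces lipid peroxides (adjusted p = 0.00464).

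Markers of the cells in the culture moved in the same comparisons. The mean of 11 T cell markers lay between 6.96 and 7.38 with Copaxone, 7.11 and 7.39 with Glatopa and 7.06 and 7.61 with ACN, against 7.61 to 7.97 with Media, and 5, 7 and 5 of them were lower and none higher. The 13 monocyte and macrophage markers averaged 6.23 to 6.48 with Copaxone, 6.17 to 6.43 with Glatopa and 6.42 to 6.63 with ACN, against 6.77 to 7.04 with Media, with 5 lower in each comparison. The 11 B cell markers overlapped, at 8.29 to 8.71 with Copaxone, 8.33 to 8.71 with Glatopa and 8.24 to 9.34 with ACN, against 8.32 to 8.66 with Media, with 2, 3 and 2 higher and 1, 1 and 0 lower, while neutrophil markers were lower (6, 6 and 3 of 11) and 3, 3 and 1 of 8 NK cell markers higher. Markers below 5.5 numbered 1 of 11 for T cells and 1 of 11 for B cells in every group. In the other lists many markers were that dim: for monocytes and macrophages 7 of 13 with Copaxone, 8 with Glatopa and 5 with ACN, against 6 with Media, for neutrophils 8 of 11 with each compound, against 6 with Media, and for NK cells 6 of 8 with each compound, against 8 with Media. The part of these markers in the oxidative phosphorylation results was not tested.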

How the data were processed

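Single-colour Agilent mouse arrays (Cy3, GenePix scanner) measured 48 samples. The authors corrected the intensities with normexp (offset 8), took log2 and quantile-normalized them with limma, whose version is not given in the sources used here, and the deposited values are these log2 intensities. Background flags, slides and array positions were not used here. Every sample column was used, with 0 left out. Sets of at least 10 spots of 1 gene symbol (293 of 10 and 94 of 11 or 12) were averaged, so 43020 spots gave 39430 probes, 29436 of them with a gene symbol and 9994 without.

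Groups followed the labels. Each pair of groups was fitted with lmFit and eBayes in limma 3.58.1 (R 4.3.3, data.table in version 1.17.8), with Benjamini-Hochberg adjustment over all probes at 0.05, and the fit was tested on simulated data. The methods' t-test, shared fits, lots or replicate numbers as blocks, other probe filters, a component covariate, cyclic loess and left-out samples were alternatives. Robust regression, group medians and unaveraged spots were added after the data were seen.

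The members and gene lists were chosen with earlier results of these data known. Named members were, for each complex and for the assembly factors, up to 3 with the smallest adjusted p in each direction between Copaxone and Media, the 3 with the smallest p between compounds, all Sdh genes and the isoform families. Other lists were named by up to 3 genes of the same kind. Promoters came from RefSeq (GRCm38.p6). The number of arrays limits the precision.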

Additional observations from a re-analysis of the deposited data

Results flagged for a closer look

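For the 37 members named by rule, the highest and lowest samples of the ACN and Media groups were set against the rest of their group with Dixon's criterion, which was met in 17 of 74 groups, and chance flags about 1 in 20 groups. In ACN, replicate 2 was low for Ndufb2 (6.74) and Sdhd (6.91) and high for Ndufaf6 (6.22). It was 1 of the 4 arrays that stood apart within their groups. Replicate 5 was low for Ndufb6 (7.05), replicate 8 for Ndufaf8 (4.88), replicate 1 for Cox4i2 (4.92) and Cox7a1 (5.05), and replicate 4 for Ndufa4 (9.33). ACN replicate 7 was high for Uqcrq (11.12) and replicate 4 for Cox6a2 (6.87).

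Of the 7 flags in Media, 6 fell on replicate 6, which was low for Atp5b (10.80), Ndufb2 (8.87), Cox6b1 (7.17) and Cox8a (11.11) and high for the dim isoforms Cox8c (5.13) and Ndufa4l2 (5.30). On that array 0.550% of bright probes lay more than 1 log2 unit below the group median and 1.27% above. Without it the count of members called with ACN was 16, against 14 with all samples. The 7th flag was Cox7a2 in Media replicate 5 (7.58). The cause of these values was not tested.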

How the results depend on the processing

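Over the named members no alternative turned a called difference round. Of their values 2654 stayed on the same side of the threshold, 30 were newly past it and 153 no longer past it. Many members were named for small p values, and differences that were not called were not counted as turned. Some of these changed sign with Copaxone after cyclic loess: Cox4i1 from 0.12 to -0.01, Ndufb2 from 0.11 to -0.01 and Sdhb from 0.04 to -0.08. Counts of called members (28 with Copaxone, 41 with Glatopa and 14 with ACN, both directions) moved by over 1.5 times under some settings. Cyclic loess gave 15 for Copaxone, 22 for Glatopa and 9 for ACN, with medians of 0.10, 0.17 and 0.09, and robust regression 43 for Copaxone and 26 for ACN. The lot as a random block gave 1 for ACN. The median over subunits only was 0.24 for Copaxone. Between compounds, where 0 members were called, ACN against Glatopa gave 3 with the lot as a random block, 1 with the within-group component as a covariate and 3 with robust regression. The cause was not tested.

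Replicate numbers were not taken to pair the samples, since the correlations of same-numbered deviations ranged from -0.0963 to 0.163 for Copaxone and Media, from -0.0509 to 0.178 for Glatopa and Media, from -0.0351 to 0.0780 for ACN and Media, from -0.139 to 0.148 for Glatopa and Copaxone, from -0.467 to 0.00354 for ACN and Copaxone and from -0.0772 to 0.103 for ACN and Glatopa. The fit with the replicate block gave 6 for Copaxone, where only 2 numbers are shared and Media replicates 3 to 7 drop out by construction, 29 for Glatopa, 11 for ACN, 0 for Glatopa against Copaxone, 1 for ACN against Copaxone (Atp5md, -1.67, adjusted p = 0.0298) and 0 for ACN against Glatopa. ACN and Copaxone too share only 2 numbers, so the Atp5md value rests on ACN replicates 1 and 2. Replicate 1 was low for Atp5md and replicate 2 stood apart. Over all samples the Atp5md means were 9.03 with ACN and 9.60 with Copaxone.

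Leaving out 1 sample or lot in turn gave 23 to 31 called members for Copaxone, 32 to 40 for Glatopa, 9 to 16 for ACN and 0 to 1 between compounds, and medians of 0.19 to 0.23 for Copaxone, 0.22 (without Media replicate 5) to 0.28 for Glatopa and 0.14 to 0.19 for ACN. Between compounds the medians ran from 0.01 to 0.03 (Glatopa against Copaxone), from -0.05 to -0.02 (ACN against Copaxone) and from -0.06 to -0.03 (ACN against Glatopa). Dim members, 25 of 95 below 8, limit what could be seen.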
